A study of Homo sapiens with 6 samples.

Results

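Nonsense-mediated decay (NMD) is the pathway that destroys mRNAs on which translation stops too early, and it also lowers many normal transcripts. Its 9 factors described here were chosen by name from the table of 62438 genes, by a rule that uses no measured value, although earlier results of these data were known when the choice was made. They are the helicase UPF1 and its partners UPF2, UPF3A and UPF3B, the kinase SMG1 with its subunits SMG8 and SMG9, and the factors SMG5 and SMG6 that act after UPF1 is phosphorylated. All 9 were found in the table and all 9 passed the expression filter.

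The human cells, which the labels call MDA-MB-453 (derived from a breast carcinoma), were harvested 48 h after transfection. The si-N6AMT1 group received siRNA to N6AMT1 and the si-CN group a scrambled control, both at 10 nM. Each group had 3 libraries, with 19739247 to 21289740 counts per library. The labels speak of triplicate cells but do not say that transfections were separate, so p-values measure the spread between these libraries, which may be technical. The targeted gene N6AMT1 had 135 to 141 counts in si-CN and 60 to 72 in si-N6AMT1 libraries. Its fitted difference was -1.10 on the log2 scale (standard error, SE, 0.119, FDR = 3.65e-07 with edgeR), so its mRNA was lowered and not abolished. Marker genes went against the label, since MDA-MB-453 is known as a luminal line. KRT5, KRT14, KRT17 and VIM, markers of basal or mesenchymal cells, had 104 to 2870 CPM (normalized counts, scaled to equal library size) in every library. KRT8, KRT18, KRT7 and XBP1 were also high, at 76.7 CPM or more, whereas the luminal factors FOXA1 and GATA3 had 2.4 to 8.9 CPM and SPDEF had 1 to 6 counts per library.

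N6AMT1 acts on the same step of translation from which NMD starts. Together with TRMT112, N6AMT1 methylates the release factor ETF1, which recognizes stop codons. When a ribosome terminates far from the end of an mRNA or upstream of an exon junction complex, UPF1 is held at the terminating ribosome with the release factors, UPF2 and UPF3 proteins join it, and SMG1 phosphorylates it. SMG6 then cuts the mRNA near the stop codon, while SMG5 helps to call in deadenylation and decapping. mRNAs of several of these factors are themselves NMD substrates, a feedback that raises them when the pathway is weakened.

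Positions are on GRCh37 (hg19). UPF1 (ENSG00000005007, chr19:18942768-18979039) and SMG9 (ENSG00000105771, chr19:44232135-44259114) share chromosome 19, and SMG6 (ENSG00000070366, chr17:1963133-2207079) and SMG8 (ENSG00000167447, chr17:57286761-57292600) share chromosome 17. UPF2 (ENSG00000151461) lies at chr10:11962021-12085169, UPF3A (ENSG00000169062) at chr13:115047076-115071292, UPF3B (ENSG00000125351) at chrX:118967985-118986961, SMG1 (ENSG00000157106) at chr16:18816182-18937730 and SMG5 (ENSG00000198952) at chr1:156219015-156252616. All 9 are protein-coding, and UPF1, UPF3A and SMG8 are on the plus strand. SMG1 has by far the longest reference transcript of the 9, with 16062 bases in 63 exons and a 3′ UTR of 4709 bases, whereas SMG8 has 3221 bases in 4 exons and a 3′ UTR of 228 bases. The median 3′ UTR of 13234 tested coding genes had 1324 bases, and 5 of the 9 factors exceeded it. Features of an mRNA that are known to recruit NMD were counted as well. A splice junction more than 50 bases after the stop codon marks an mRNA for the pathway. In all, 0 of the 9 reference transcripts have one, beside 1.35% of the coding genes. An ATG upstream of the start codon, which can also place a stop codon early, is present in UPF2, SMG1, SMG5 and SMG9, 4 of the 9, beside 41.3% of the coding genes. The stop codon is TGA in 7 of the 9 and TAA in UPF1 and SMG8, whereas 49.8% of the coding genes end in TGA.

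The 3′ UTRs were also searched, on the transcript strand only, for the words TTCACAT and TCACATA, which overlap by 6 bases. These words were known from earlier results of the same libraries to go with lower expression. The search and the shares that follow are therefore a description and not a test. The shares were not adjusted for 3′ UTR length or GC content. Of the tested coding genes, 22.2% hold a word, and 28.4% of these 2939 genes were called lower in si-N6AMT1, compared with 10.4% of the 10295 genes without one. Among the 9 factors, UPF2, UPF3B, SMG1 and SMG9 hold a word once each. UPF2, UPF3B and SMG1 are also the 3 factors called lower below. The 4 sites are shown with 9 bases on either side, 5′ to 3′ on the transcript strand, with the word in capitals. All 4 lie on the minus strand of GRCh37.
UPF2, chr10:11962086-11962110, 1196 bases after the stop codon: ttgtaacatTTCACATggaaatgct
UPF3B, chrX:118968528-118968552, 298 bases after the stop codon: aggacttcaTCACATAtgacacgag
SMG1, chr16:18818555-18818579, 2321 bases after the stop codon: gatagtcagTTCACATtagtttagc
SMG9, chr19:44232488-44232512, 3245 bases after the stop codon: agcaggtacTTCACATgcccagagc
SMG9 holds the word but was not lower, and SMG6 was the factor with the largest fitted fall and holds none. A match is a run of letters and does not show that anything binds there.

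Levels of the 9 factors were compared per transcript length, as TPM, for which counts were divided by reference transcript length and brought to a fixed total. UPF3B was highest in si-CN, with 98.9 ± 2.42 TPM (SD, n = 3), above 86.4% of the 12290 coding genes that reach 1 TPM. SMG5 followed with 77.6 ± 1.6 TPM (SD, n = 3) and UPF1 with 50.3 ± 1.86 TPM (SD, n = 3). UPF3A, the paralog of UPF3B and regarded as the weaker activator of NMD, had 37.3 ± 0.307 TPM, SMG1 had 34.1 ± 1.57 TPM and UPF2 had 24.9 ± 0.436 TPM (SD, n = 3 each). The lowest levels were those of SMG9, with 13.8 ± 0.551 TPM, SMG8, with 12.6 ± 1.02 TPM, and the endonuclease SMG6, with 11.2 ± 0.717 TPM (SD, n = 3 each), which was above 31.8% of coding genes. From UPF3B down to SMG9 the si-CN libraries of neighbouring genes did not overlap, although UPF3A and SMG1 stood only 1.1-fold apart. SMG8 overlapped with both SMG9 and SMG6 and cannot be ordered against them. SMG9, at 13.1 to 14.1 TPM, lay above SMG6, at 10.4 to 11.6 TPM. Thus, taking the reference length for every gene, the catalytic subunit SMG1 had a higher TPM than either of its subunits. The bridging factor UPF2 had a lower TPM than UPF1 or UPF3B. Use of other transcript lengths was not measured, and the 5491 bases of SMG9 include a 3′ UTR of 3613 bases. SMG1 also shares sequence with other genes, as described below. The order of the 9 means was the same in si-N6AMT1 libraries.

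**Figure D1:**
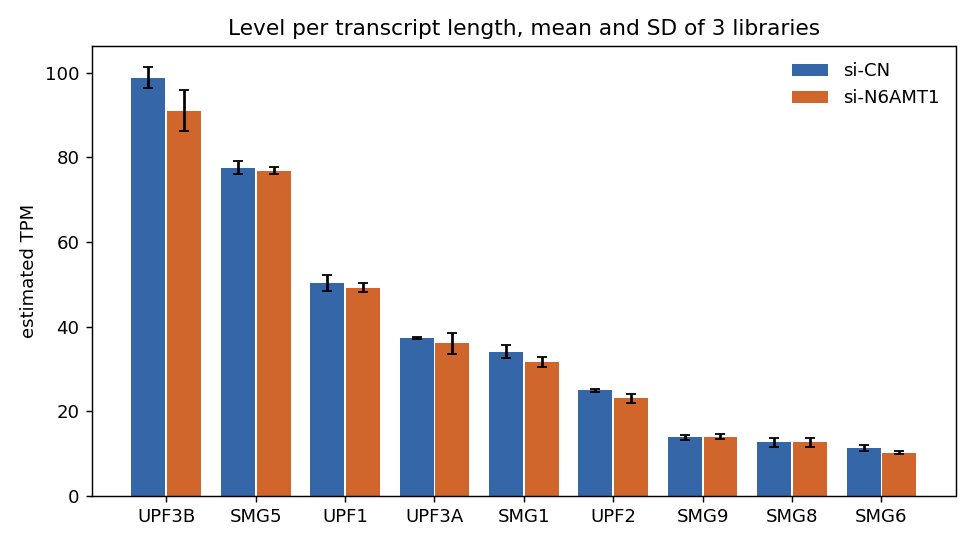
Level of each factor in estimated TPM (vertical axis), with bars for the mean and error bars for the SD of 3 libraries in si-CN (blue) and si-N6AMT1 (orange). UPF3B stands highest, near 98.9 TPM in si-CN, and SMG6 lowest, near 11.2 TPM, and the order of the genes is the same in both groups.

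After N6AMT1 knockdown, 3 of the 9 factors, UPF2, UPF3B and SMG1, were lower and 0 were higher at FDR under 0.05 (edgeR's quasi-likelihood test, Benjamini-Hochberg adjusted over 17320 genes). These fitted changes were small, -7.47%, -7.63% and -6.99%. DESeq2 called 1 of them, SMG1, and fits that left out 1 library called 0 to 2 factors lower, with 0 without si-CN replicate 3 and 1 without si-N6AMT1 replicate 3. In the background, 11.5% of all tested genes were called lower and 9.78% higher. Of the 9 fitted log2 fold changes 7 were below 0, beside 49.1% of all tested genes, with a median of -0.05, whereas the median of all tested genes was 0.00. From here on, CPM are also scaled by the TMM library factors of edgeR. In these CPM, the libraries of the groups did not overlap for 4 factors, all lower in si-N6AMT1. Of all tested genes, 18% were lower and 16.8% higher without overlap. In TPM, which carry no TMM factors, the libraries of the groups overlapped for SMG1 and SMG6 as well. At an unadjusted p under 0.05, where 31.9% of tested genes passed in either direction, 4 factors were lower and 0 higher, and DESeq2 and limma-voom also called 0 higher. In bulk RNA, less RNA per cell and fewer cells of a kind cannot be told apart.

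**Figure D2:**
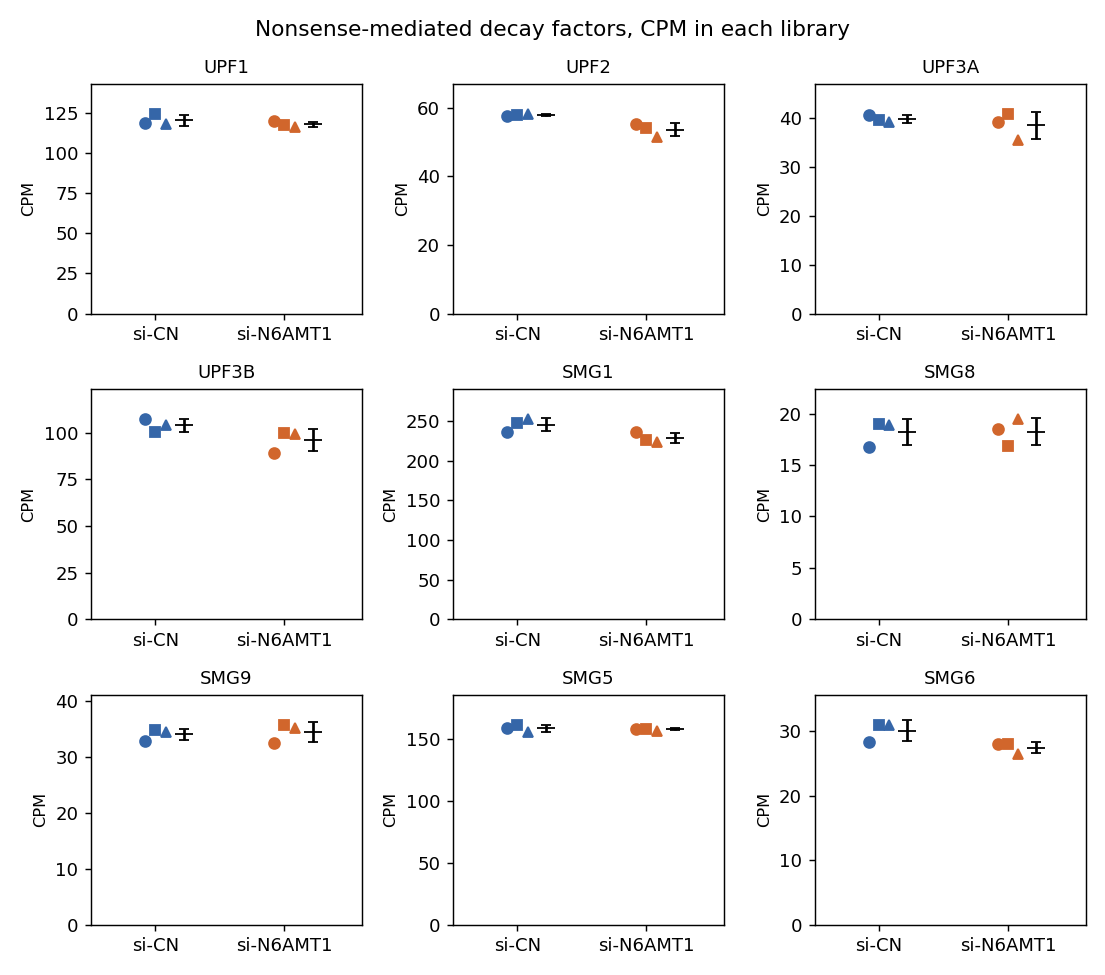
Normalized counts (CPM scaled by TMM, vertical axis from 0) of each factor in the 3 si-CN (blue) and 3 si-N6AMT1 (orange) libraries, with circle, square and triangle for replicates 1, 2 and 3 and black bars for the mean and SD. UPF2, UPF3B, SMG1 and SMG6 are the panels in which the groups do not overlap, and all 9 differences are small relative to the level.

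UPF1, the RNA helicase on which the whole pathway rests, did not pass the test. It had 118.4, 124.5 and 117.9 CPM in si-CN and 119.7, 117.4 and 116.3 CPM in si-N6AMT1 libraries (replicates 1 to 3). The groups overlapped, and the fitted difference was -0.03 on the log2 scale (SE 0.0284, FDR = 0.531), with a 95% interval of -5.93% to 2.08% on the linear scale. A fall as large as that of N6AMT1 itself lies far outside this interval.

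UPF2 bridges UPF1 to the UPF3 proteins. It had 57.6, 57.9 and 58.2 CPM in si-CN and 55.2, 54.2 and 51.4 CPM in si-N6AMT1 libraries. Each si-N6AMT1 library lay below each si-CN library (exact permutation test, two-sided p = 0.1, the smallest that 3 libraries against 3 allow). UPF2 fell by 7.47%, a log2 fold change of -0.11 (SE 0.037, FDR = 0.0336 from edgeR). This call is close to the threshold. It was lost with DESeq2 (adjusted p = 0.207) and in 5 of the 6 fits that left out 1 library, with FDR of 0.0554, 0.0781 and 0.102 without si-CN replicates 1, 2 and 3 and of 0.06 and 0.187 without si-N6AMT1 replicates 2 and 3.

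The UPF3 paralogs connect UPF2 to the exon junction complex. UPF3B, encoded on the X chromosome, had 107.4, 100.6 and 104.4 CPM in si-CN and 89.2, 99.9 and 99.4 CPM in si-N6AMT1 libraries. Replicate 1 of si-N6AMT1 was the lowest by a wide margin, and the nearest libraries of the groups, at 99.9 and 100.6 CPM, barely separated. UPF3B fell by 7.63% (log2 fold change -0.11, SE 0.0372, FDR = 0.0307 from edgeR). The call was lost with DESeq2 (adjusted p = 0.115), without si-CN replicates 1 and 3 (FDR = 0.119 and 0.0941) and without si-N6AMT1 replicate 1 (FDR = 0.214), where the log2 fold change was -0.06.

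UPF3A had 40.65, 39.51 and 39.13 CPM in si-CN and 39.1, 40.85 and 35.4 CPM in si-N6AMT1 libraries. These groups overlapped, with only si-N6AMT1 replicate 3 below the rest, and UPF3A was not called (log2 fold change -0.05, SE 0.0483, FDR = 0.543). Its 95% interval ran from -9.78% to 3.66%, which includes the size of the fall of UPF3B. The ratio of UPF3A to UPF3B did not separate the groups either. It was -1.39 ± 0.0358 in si-CN and -1.32 ± 0.152 in si-N6AMT1 on the log2 scale of counts (SD, n = 3 each, exact permutation test, two-sided p = 0.6). Hence a different response of the paralogs was not shown. UPF3A shares 50.1% of its 31-base words, the length by which kallisto assigns reads, with other genes, mostly the processed pseudogenes UPF3AP2 and UPF3AP1, but the 3 copies of UPF3A had 0 to 5 counts each in any library. UPF3A and UPF3B share none of these words.

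SMG1, the kinase that phosphorylates UPF1, had the lowest FDR of the 9. It had 236.3, 248.5 and 252.8 CPM in si-CN and 236.1, 226.8 and 223.4 CPM in si-N6AMT1 libraries. Replicate 1 of both groups had nearly the same value, and in TPM, which is not scaled by TMM, these libraries overlapped (32.3 TPM in si-CN replicate 1 and 33 TPM in si-N6AMT1 replicate 1). SMG1 fell by 6.99% (log2 fold change -0.10, SE 0.0273, FDR = 0.00741 from edgeR). It was the 1 factor that DESeq2 also called, and the FDR rose to 0.071 without si-CN replicate 3 and to 0.057 without si-N6AMT1 replicate 3.

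Counts of SMG1 carry a further uncertainty, because the annotation holds partial copies of the gene. The 7 copies, SMG1P1 to SMG1P7, took 23.3% to 24.6% of the summed counts of SMG1 and copies in the 6 libraries. Of the SMG1 reference transcript, 23.5% of 31-base words occur in other genes, and 32.4% to 68% of the words of a copy occur in SMG1. Words are shared with 5715 other genes in all, so the 23.5% does not count the copies alone. The largest share with 1 gene was 15.4%, with SMG1P2. SMG1P3 fell more than SMG1, from 27.03 ± 1.96 CPM in si-CN to 21.36 ± 1.83 CPM in si-N6AMT1 (SD, n = 3 each, log2 fold change -0.34, SE 0.0651, FDR = 0.000479 from edgeR). Among the other 5 copies tested none was called, and SMG1P1 was the highest of them, at 0.15 on the log2 scale (FDR = 0.399). With all copies added to SMG1, the log2 fold change was -0.11 (FDR = 0.00289 from edgeR), so this sum was called as well.

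SMG8 and SMG9 form a complex with SMG1 and restrain its kinase activity. SMG8 had 16.7, 18.9 and 18.9 CPM in si-CN and 18.5, 16.8 and 19.5 CPM in si-N6AMT1 libraries, or 328 to 400 counts. The groups overlapped fully (log2 fold change 0.00, SE 0.0702, FDR = 0.975), and at this depth the 95% interval was wide, from -9.33% to 11%. SMG9 had 32.9, 34.7 and 34.3 CPM against 32.4, 35.7 and 35.1 CPM, and it was not called either (log2 fold change 0.02, SE 0.0473, FDR = 0.825). Its interval of -5.28% to 8.53% does not include the fall of SMG1. Relative to SMG1 in the same library, however, neither subunit separated the groups. The log2 ratio of SMG9 to SMG1 was -2.86 ± 0.0214 in si-CN and -2.73 ± 0.113 in si-N6AMT1, and that of SMG8 to SMG1 was -3.76 ± 0.0561 and -3.65 ± 0.119 (SD, n = 3 each), with exact permutation p = 0.3 for each.

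SMG5 and SMG6 act on phosphorylated UPF1. SMG5 was the steadiest of the 9, with 159.1, 161.9 and 156.3 CPM in si-CN and 158.1, 158.7 and 157.1 CPM in si-N6AMT1 libraries. Its log2 fold change was -0.01 (SE 0.0249, FDR = 0.833), and the 95% interval of -4.18% to 2.93% was the narrowest among the 9. SMG6, the endonuclease, had 28.27, 31.03 and 30.98 CPM in si-CN and 27.95, 27.97 and 26.48 CPM in si-N6AMT1 libraries. In CPM, all si-N6AMT1 libraries lay below all si-CN libraries, though replicate 1 of si-CN came close. In TPM the groups overlapped, with 10.4 TPM in si-CN replicate 1 and 10.5 TPM in si-N6AMT1 replicate 1. Its log2 fold change of -0.13 was the largest in size among the factors (SE 0.0515) and did not pass the threshold (FDR = 0.0723 from edgeR, 0.0241 without si-CN replicate 1). SMG6 overlaps HIC1 on the opposite strand, which shares 29.5% of the 31-base words of SMG6. HIC1 had 38 to 50 counts per si-CN library and 54 to 79 per si-N6AMT1 library, against 543 to 657 for SMG6, and its part in the lower counts of SMG6 was not tested.

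**Figure D3:**
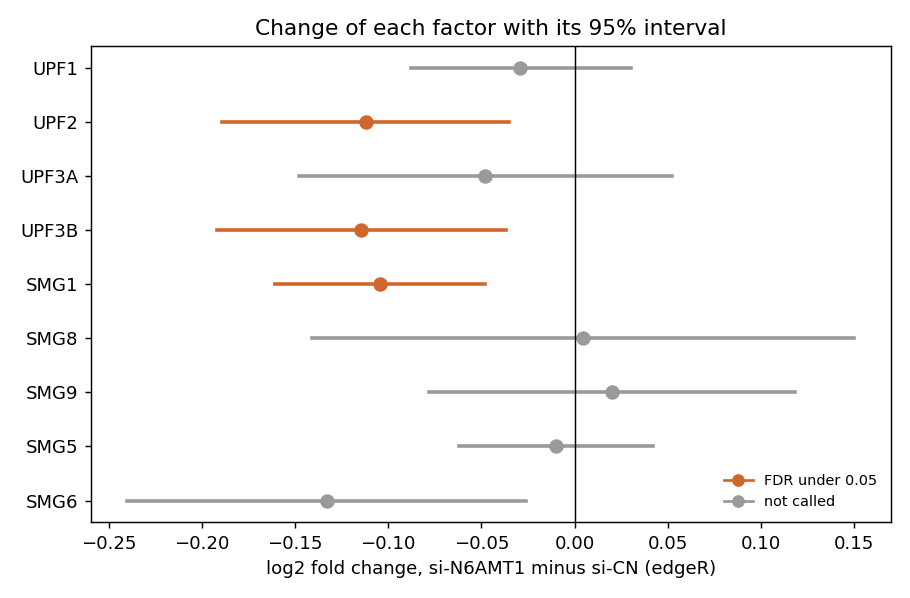
Log2 fold change of each factor, si-N6AMT1 minus si-CN (horizontal axis), from edgeR, with lines for the 95% interval. UPF2, UPF3B and SMG1 (orange, FDR under 0.05) lie between -0.12 and -0.10. SMG6 reaches further down but has a wider interval, and UPF1 and SMG5 have narrow intervals that include 0.

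In all, 6 ratios of factors within a library were compared, which do not depend on how libraries are scaled. SMG5 to SMG6 was 2.4 ± 0.0808 in si-CN and 2.52 ± 0.0386 in si-N6AMT1 on the log2 scale, and UPF2 to UPF1 was -1.05 ± 0.0444 and -1.14 ± 0.0361 (SD, n = 3 each). For these ratios the groups did not overlap (exact permutation test, two-sided p = 0.1 for each, 0.3 after Benjamini-Hochberg adjustment over the 6 ratios). They barely separated, however. The nearest si-CN and si-N6AMT1 libraries had 2.49 and 2.5 for SMG5 to SMG6, and -1.1 and -1.12 for UPF2 to UPF1. UPF2 to UPF3B was -0.846 ± 0.0522 in si-CN and -0.842 ± 0.135 in si-N6AMT1 (exact permutation p = 1). Since 0.1 is the smallest p this design allows, none of the 6 can pass a threshold of 0.05.

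Base composition went along with the calls. Reference transcripts of UPF2, UPF3B and SMG1 had 41.2%, 41.3% and 43.1% GC, the lowest of the 9, whereas the other 6 ran from 47.4% (SMG8) to 60.4% (UPF1). Over all tested genes with a GC value, the median log2 fold change went from -0.03 in the lowest of 5 equal GC bins to 0.05 in the highest, and the share called lower from 19.2% to 4.27%. UPF2, UPF3B and SMG1 lie in the bin of 40.7% to 45.4% GC, with a median of -0.02 and 15.5% called lower. With a correction of each library for GC content, chosen after seeing the data, UPF2 and UPF3B each had a log2 fold change of -0.08 and were no longer called (FDR = 0.138 and 0.119 from edgeR). SMG1 stayed under the threshold (log2 fold change -0.08, FDR = 0.043) and SMG6 came under it (log2 fold change -0.15, FDR = 0.0361). UPF1 moved to -0.07 (FDR = 0.0669). With the replicate number as a block as well, 0 of the 9 were called, and SMG6 had an FDR of 0.0514 and SMG1 of 0.0941. The part of GC content and of the 3′ UTR words in these differences was not tested.

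**Figure D4:**
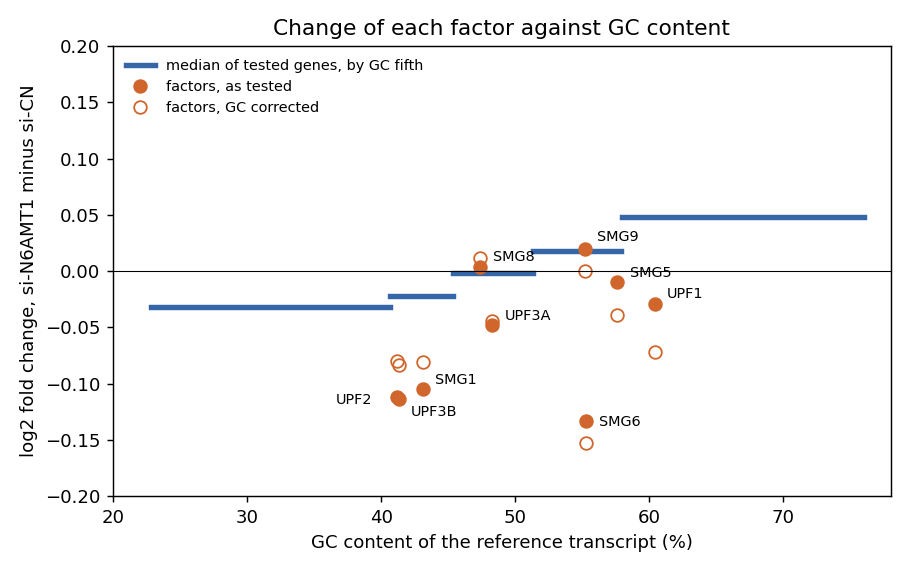
Log2 fold change of each factor (vertical axis) against the GC content of its reference transcript in percent (horizontal axis), as tested (filled) and after GC correction (open), with blue lines for the median of all tested genes in each of 5 GC bins. UPF2, UPF3B and SMG1 lie at 41.2% to 43.1% GC and move towards 0 with the correction, while UPF1, SMG5 and SMG6 move down.

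Release factors stand next to UPF1 at the stop codon. ETF1, the substrate of N6AMT1, fell from 124.1 ± 1.41 CPM in si-CN to 115.5 ± 2.13 CPM in si-N6AMT1 (SD, n = 3 each, log2 fold change -0.10, SE 0.0268, FDR = 0.00673 from edgeR), and the groups did not overlap. This call was lost with DESeq2 (adjusted p = 0.0646), without si-N6AMT1 replicate 2 (FDR = 0.0524) and with GC correction (FDR = 0.0528). TRMT112, the partner of N6AMT1, rose by 9.81% (log2 fold change 0.13, SE 0.0299, FDR = 0.00198). GSPT1, which delivers ETF1 to the ribosome, was not called (log2 fold change 0.01, FDR = 0.905), nor was ABCE1, the ribosome recycling factor (log2 fold change 0.05, FDR = 0.252), and GSPT2 was listed at 0 in all 6 libraries.

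Of 9 further proteins that assist NMD, 2 were lower and 3 higher, beside 11.5% and 9.78% of all tested genes, with a median log2 fold change of 0.04. NBAS fell by 15.3% (FDR = 0.000321), while MOV10, an RNA helicase that associates with UPF1, rose by 11.5% (FDR = 0.000108). PNRC2, which links UPF1 to decapping, rose by 8.85% (FDR = 0.0035), and the helicase DHX34 rose by 17.1% (FDR = 0.00358), all from edgeR. The DHX34 call was lost with DESeq2 on all genes (adjusted p = 0.0526). Of 9 genes of the exon junction complex and its associates, 1 was lower and 1 higher, which is near the share of all tested genes in each direction (11.5% and 9.78%). CASC3, a core subunit, fell by 8.01% (FDR = 0.00348), RNPS1 rose by 10.8% (FDR = 0.000136), and the core helicase EIF4A3 was not called (log2 fold change -0.04, FDR = 0.324).

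Genes for the enzymes that complete mRNA decay were called in both directions. Of 39 genes for decapping, deadenylation, exonucleases and ribosome rescue, 9 were lower, 4 higher and 26 not called, beside 11.5% of all tested genes lower and 9.78% higher, with a median log2 fold change of -0.03. XRN1, the exonuclease that degrades the 3′ piece left by SMG6, fell by 13.2% (log2 fold change -0.20, SE 0.0383, FDR = 0.000386 from edgeR). DIS3, a nuclease of the exosome, fell by 7.22% (FDR = 0.00169), CNOT1, the scaffold of the deadenylase complex, fell by 6.43% (FDR = 0.00349), and HBS1L, a ribosome rescue factor, fell by 10.1% (FDR = 0.00372). The largest changes in the list were rises, of 23.4% for EXOSC4, an exosome subunit (FDR = 0.0041), and of 21.2% for DCP1B, a decapping cofactor (FDR = 0.00616). With DESeq2 the count was 4 lower and 1 higher, with GC correction 5 lower and 5 higher, and with the replicate block and GC correction 3 lower and 5 higher, so no direction of the list held across these fits.

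Transcripts known as NMD substrates were higher more often than lower. The list was drawn up with earlier results of these data known, so its counts are a description. Of 14 listed, 8 were higher, 1 lower and 5 not called, beside 9.78% and 11.5% of all tested genes, and the median log2 fold change was 0.14. Of the 5 host RNAs of small nucleolar RNAs, 4 were higher, with a median log2 fold change of 0.15. Of the 9 coding genes, 4 were higher and 1 lower, with a median of 0.07. GAS5 rose from 419.9 ± 12.5 CPM in si-CN to 466.9 ± 13.8 CPM in si-N6AMT1 (SD, n = 3 each, log2 fold change 0.15, SE 0.0252, FDR = 9.06e-05 from edgeR), and SNHG15 rose by 16.3% (FDR = 3.59e-06). Of the coding genes, DDIT3, a stress-induced transcription factor, rose by 15.5% (FDR = 6.7e-05) and SLC7A11, a cystine transporter, by 14.3% (FDR = 4.44e-05). GADD45B fell by 14.5% (FDR = 4.92e-05), and ATF4 was not called (log2 fold change 0.03, SE 0.0236, FDR = 0.449). Across 15 alternative fits, 6 to 9 of the 14 were called higher. Several of these genes are also driven by stress or growth signals, and counts per gene do not separate the spliced forms that NMD removes from the others. NMD activity was not measured here.

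**Figure D5:**
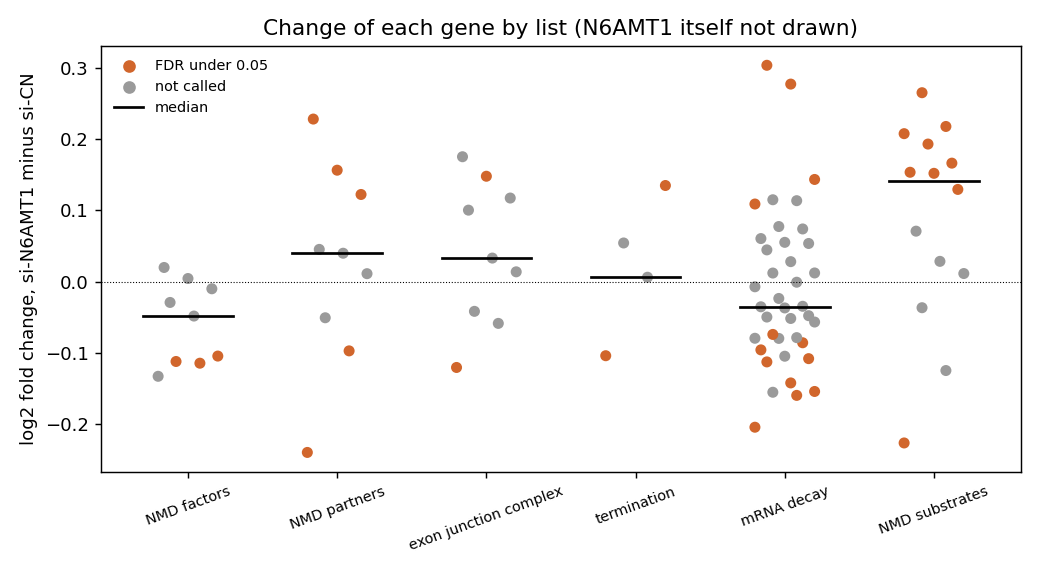
Log2 fold change, si-N6AMT1 minus si-CN (vertical axis), of each tested gene in 6 lists (horizontal axis), with points in orange at FDR under 0.05 and grey otherwise, and black lines for the median of a list. The 9 NMD factors lie between -0.13 and 0.02, whereas 8 of the 14 NMD substrates are called higher, with a list median of 0.14. N6AMT1 is not drawn but counts in the median of its list.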

How the data were processed

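The authors trimmed reads with Trim Galore, ran kallisto (0.46.0) against hg19 transcripts and summed its estimates per gene. The deposited values are these estimated counts (expected counts) in whole numbers, without normalization. A strand option is not given in the sources used here. Total counts ran from 19739247 to 21289740.

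All 6 libraries were tested in edgeR 4.0.16 (R 4.3.3; filterByExpr with a minimum count of 10, TMM, quasi-likelihood test, no covariate). Calls were made at a Benjamini-Hochberg FDR under 0.05 across 17320 genes, and each standard error was derived from the fold change and its F statistic. The procedure was also run on simulated counts with changes larger than those of the factors, so that run does not bear on calls of their size. Symbols, positions, transcript lengths and sequences came from GENCODE v44 on GRCh37, in which 62149 of 62438 identifiers were matched. Library pairs differed beyond sampling noise within groups (chi-square per degree of freedom 1.37 to 1.77, and 6.89 to 7.8 between groups), so all were kept. The common coefficient of variation beyond counting noise, as fitted by edgeR, was only 1.85%. These values do not show that transfections were separate.

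The members and all gene lists were chosen with earlier results of these data known. Named genes are the 9 factors, N6AMT1, ETF1, GAS5, ATF4, annotated copies of the factors, and up to 4 called genes of lowest FDR per list. Other names (GSPT1, ABCE1, GSPT2, EIF4A3, HIC1, EXOSC4, DCP1B) were added after their values were seen. A further gene of the pathway and a list that held it are not reported here. Alternatives were RLE factors, DESeq2 1.42.0, limma-voom (limma 3.58.1), other filters, the replicate number as a block, added pseudogene copies, and each library left out. GC correction was an alternative chosen after seeing the data.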

Additional observations from a re-analysis of the deposited data

How the results depend on the processing

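RLE factors, limma-voom, no expression filter and leaving mitochondrial genes out of the totals each gave 3 factors called lower, and all alternatives gave 0 called higher. With DESeq2 on all genes and on genes with a mean TPM of at least 1, 1136 and 1240 genes were lower and 796 and 930 higher, and 1 factor was lower in each. UPF2 then had log2 fold changes of -0.1131 and -0.1113 (adjusted p = 0.207 and 0.166) and UPF3B of -0.1161 and -0.1142 (adjusted p = 0.115 and 0.0909). GC correction, chosen after seeing the data, gave -0.0801 for UPF2, -0.0827 for UPF3B and -0.153 for SMG6, with 2 factors called lower. The replicate block with GC correction gave -0.0805 for UPF2, -0.0832 for UPF3B and -0.0802 for SMG1, with 0 called.

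Same-numbered libraries did not deviate together (correlations of -0.038, -0.042 and 0.01), so the replicate numbers were not taken as pairs. The replicate block alone left 3 factors lower, with 1804 genes lower and 1522 higher in all. UPF2 stood at the threshold in that fit (FDR = 0.05 after rounding, from edgeR).

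Leaving out 1 library at a time gave 1540 to 1818 genes lower, 1295 to 1523 higher and 0 to 2 factors lower, with 0 without si-CN replicate 3 and 1 without si-N6AMT1 replicate 3. Log2 fold changes then ranged from -0.1328 to -0.0822 for UPF2, -0.1427 to -0.0627 for UPF3B, -0.1323 to -0.0826 for SMG1, -0.1754 to -0.1068 for SMG6 and -0.0426 to -0.0041 for UPF1. They crossed 0 for UPF3A (-0.0947 to 0.0087), SMG5 (-0.0219 to 0.0024), SMG8 (-0.0516 to 0.0608) and SMG9 (-0.0072 to 0.0612). The ratios of UPF3A to UPF3B (-9e-04 to 0.1487) and UPF2 to UPF3B (-0.0709 to 0.0591) crossed 0 too.

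Counts in the lists moved as follows. Partners called lower went from 2 to 1 with DESeq2, with either filter, and with GC correction, with or without the replicate block (1 to 2 with 1 library left out). Partners called higher went from 3 to 2 with DESeq2 on all genes and to 4 with GC correction without the block. Exon junction genes called higher went from 1 to 2 without an expression filter, with the block and with GC correction, with or without the block (1 to 2). Termination genes called lower were ETF1 and the targeted gene N6AMT1 itself. Their count went from 2 to 1 with DESeq2 on all genes and with GC correction, with or without the block (1 to 2). The call lost was that of ETF1. Termination genes called higher went from 1 to 2 with GC correction, with or without the block. Decay genes called lower went from 9 to 4 with DESeq2, with either filter, to 5 with GC correction and to 3 with the block as well (5 to 8 with 1 library left out), and those higher from 4 to 1 with DESeq2, with either filter, and to 5 with GC correction, with or without the block (2 to 4), so that lower calls no longer outnumbered higher ones with GC correction. Substrates called lower were 1 to 2 with 1 library left out. The cause was not tested in any of these cases.

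With the length of the longest transcript in place of the reference transcript, TPM in si-CN were 63.7 for UPF1, 29.4 for UPF2, 46.3 for UPF3A, 125 for UPF3B, 43.2 for SMG1, 98.5 for SMG5, 14.2 for SMG6, 14.8 for SMG8 and 17.5 for SMG9, in the same order. However, both lengths are the same for UPF3B, SMG1, SMG5, SMG6 and SMG9 and differ little for the others. The order could therefore hardly change, and shorter transcripts were not tried. Depth limits SMG8 most, with 328 to 400 counts per library.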
